A study of Mus musculus with 6 samples.

Results

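Aminoacyl-tRNA synthetases of the cytosol and of the mitochondrion were followed in BV2 cells, an immortalised mouse microglial line, after Tfam had been targeted. The 39 members were taken by name: 20 cytosolic synthetase genes, the 3 scaffold genes of the cytosolic multi-synthetase complex and 16 mitochondrial synthetases. All 39 had a row among the 17872 genes of the count table, and all 39 passed the filter on low counts that left 13403 genes to test. Mars1 was listed there under its older symbol Mars. RNA came from 3 samples labelled Tfam-KO and 3 labelled WT. The Tfam-KO label stands for CRISPR-Cas9 knockout of Tfam followed by continuous culture in puromycin. The labels name no guide RNA, and leave unsaid whether the edited line was 1 clone or a pool and whether WT cells had also been under puromycin. The libraries were made from poly(A) RNA with a kit that does not mark strand. Whether replicates were separate cultures is not stated, so each p-value measures the spread among these samples, and that spread may be technical. In bulk RNA of this kind, fewer cells of a type and less RNA per cell cannot be told apart.

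Aminoacyl-tRNA synthetases load each tRNA with its amino acid, the step that ties an anticodon to a residue. Translation in the cytosol and in the mitochondrion mostly rely on separate enzymes, both encoded in the nucleus, and the mitochondrial enzymes charge tRNAs that are transcribed from mitochondrial DNA. Gars and Kars each make the enzyme for both compartments, and mitochondria obtain glutaminyl-tRNA by amidation instead of from a synthetase of their own. In mammals several cytosolic synthetases sit in one large complex held together by Aimp1, Aimp2 and Eef1e1. Tfam packages mitochondrial DNA and starts its transcription, so its loss bears on the tRNAs that the mitochondrial enzymes serve. Many cytosolic synthetase genes are known targets of ATF4, the transcription factor of the integrated stress response, which binds C/EBP-ATF response elements with other bZIP proteins.

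CPM here means counts per 1e+06 counts after TMM scaling. Calls rest on edgeR's quasi-likelihood test, with 0.05 as the limit on the adjusted p. Total counts ran from 13850691 to 20889786 in the libraries labelled Tfam-KO and from 14642397 to 28418133 in WT libraries. Tfam mRNA was not lower in the labelled Tfam-KO libraries, with raw counts of 868, 743 and 619 there against 1098, 591 and 524 in WT libraries. Its log2 fold change was 0.14 ± 0.0869 (SE, adjusted p = 0.193, edgeR), so its level did not check the labels, and every direction here is between libraries labelled Tfam-KO and WT. Genes of the mitochondrial genome took 1.37% to 1.42% of counts in labelled Tfam-KO libraries and 3.52% to 4.31% in WT libraries. Microglial and macrophage markers were present (summed level 1991 to 2223 CPM in labelled Tfam-KO libraries and 2803 to 3200 CPM in WT libraries), and 7 of the 9 tested were lower in labelled Tfam-KO libraries. The homeostatic microglial markers Tmem119 and Sall1 were near 0 in both groups. Markers of lymphocytes summed to at most 0.456 CPM in any library, those of astrocytes to 0.978 CPM and those of neurons to 3.13 CPM. Markers of oligodendrocytes, mostly Mbp, summed to 11.5 to 14 CPM in labelled Tfam-KO libraries and 24.4 to 25.2 CPM in WT libraries, and those of fibroblasts and endothelium to at most 5.54 CPM in any library. The part of these marker differences in the results was not tested. Of all genes tested, 44.2% were called, 21.3% higher and 22.9% lower.

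A C/EBP-ATF response element (TGATGNAA, either strand) was found in the promoter windows of 5 members, all of them cytosolic and called higher with all 6 libraries, and these matches are shown for that reason. The windows are RefSeq promoters on build GRCm38.p6, written 5′ to 3′ on the strand of the gene, with the match in capitals. In Yars the match reads as TGATGNAA, and in the other promoters it lies on the opposite strand and reads as TTNCATCA. The Aars promoter held 2 matches.
Yars, chr4:129189876-129189932, plus strand: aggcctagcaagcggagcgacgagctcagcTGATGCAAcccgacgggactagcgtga
Gars, chr6:55037941-55038008, plus strand: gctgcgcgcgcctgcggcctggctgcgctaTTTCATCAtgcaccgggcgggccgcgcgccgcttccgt
Aars, upstream match, chr8:111033700-111033767, plus strand: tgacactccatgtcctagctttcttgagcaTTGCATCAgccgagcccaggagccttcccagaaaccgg
Aars, match past the start, chr8:111033821-111033871, plus strand: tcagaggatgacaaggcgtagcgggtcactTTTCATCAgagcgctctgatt
Iars, chr13:49682107-49682159, plus strand: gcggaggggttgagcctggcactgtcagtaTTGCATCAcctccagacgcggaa
Tars, chr15:11399636-11399703, minus strand: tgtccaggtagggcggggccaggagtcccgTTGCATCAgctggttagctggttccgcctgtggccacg
The element lies within 30 bases of the annotated start in Yars, Gars, Iars, Tars and the second Aars match, and 112 bases before it in the first Aars match.

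For the mitochondrial enzymes the substrate is the sequence of interest. The tRNA genes served by the 4 called mitochondrial synthetases whose tRNA gene could be tested are shown as the strand of the tRNA, in DNA letters from the GENCODE M21 transcripts, with the anticodon in capitals.
mt-Ts2, charged by Sars2: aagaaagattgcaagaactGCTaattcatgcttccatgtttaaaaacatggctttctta
mt-Tw, charged by Wars2: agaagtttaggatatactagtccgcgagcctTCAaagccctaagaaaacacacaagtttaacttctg
mt-Ty, charged by Yars2: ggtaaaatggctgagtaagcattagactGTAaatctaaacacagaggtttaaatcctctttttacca
mt-Th, charged by Hars2: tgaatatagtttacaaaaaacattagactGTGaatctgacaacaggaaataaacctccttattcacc
The serine tRNA is the shortest of them, at 59 bases against 67 for each of the other 3.

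In the libraries labelled Tfam-KO, 15 of the 39 members rose, 2 fell and 22 were not called. Their median log2 fold change was 0.14, beside 0.0012 over all tested genes. The share called (43.6%) was near that of all genes, while the share called higher (38.5%) and the share called lower (5.13%) can be read against 21.3% and 22.9% of all genes. The split came from both compartments. Of 23 cytosolic members, 10 rose and 1 fell (median 0.17), and of 16 mitochondrial members, 5 rose and 1 fell (median 0.12). Without Gars and Kars, which serve both compartments, 8 of 21 cytosolic members rose and 1 fell. Their median was then 0.07, below the mitochondrial one. These 21 genes still include the 3 scaffold genes, which are not synthetases. Over the 20 cytosolic synthetase genes, Gars and Kars among them, the median was 0.19. The order of the 2 medians thus depends on which genes are counted as cytosolic, the scaffold genes included. The 10 cytosolic increases became 6 without WT replicate 2 and 5 without WT replicate 3 or without Tfam-KO replicate 3. The changes were small. Tested against a 1.5-fold change with edgeR's glmTreat, which called 8.16% of all genes (2.9% higher and 5.26% lower), 1 mitochondrial member, Sars2, and 0 of the 23 cytosolic members were called, with 0 cytosolic members also at an unadjusted p below 0.05. In the ordinary test 14 cytosolic members had an unadjusted p below 0.05, of which DESeq2 called 14, while limma called 13 on the authors' log2 values. With scaling by library totals alone, the median of all genes moved to 0.0998, and higher and lower calls became 3832 and 2372 genes, against 2859 and 3067 with TMM. The cytosolic and mitochondrial medians then stood at 0.27 and 0.22, so each lay above the median of all genes under both scalings.

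**Figure D1:**
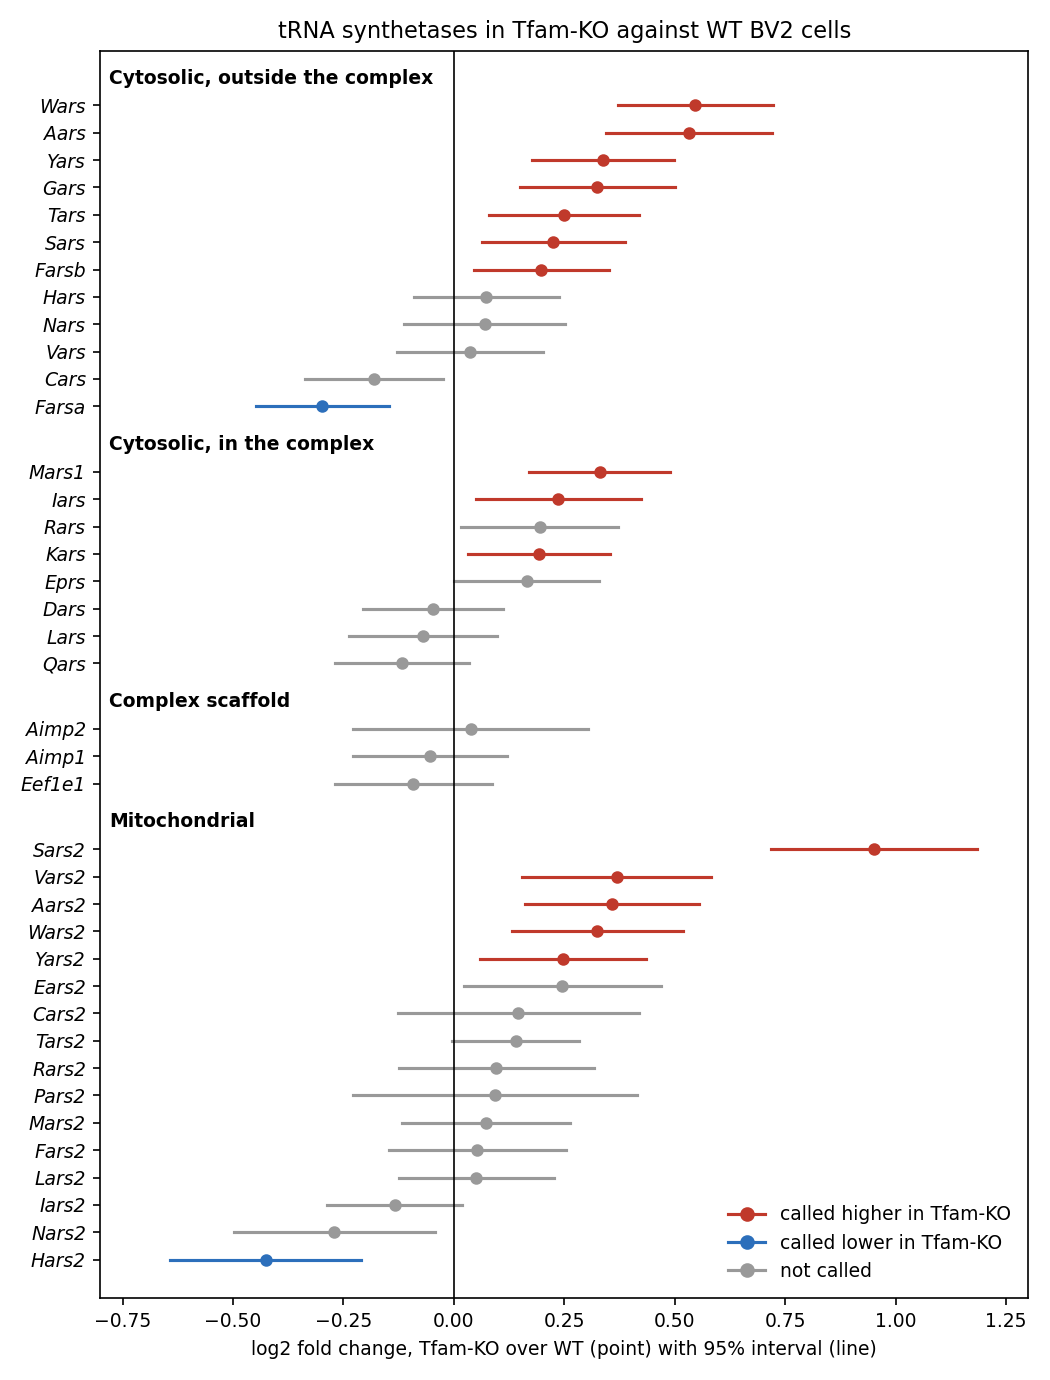
Log2 fold change of each member in libraries labelled Tfam-KO over WT (horizontal axis; points) with its 95% interval from edgeR (lines), n = 3 libraries a group, ordered by role. Red points were called higher, blue points lower, and grey points were not called; Sars2 lies apart at 0.95, and Farsa and Hars2 are the 2 members below 0 that were called.

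By level per length, the cytosolic enzymes were the abundant ones. Length here is that of the longest transcript of a gene. Ranks within a compartment depend on that choice, as all exons of a gene together can be longer. The median over the 20 cytosolic synthetase genes was 113 CPM per kb of transcript in labelled Tfam-KO libraries and 90.9 CPM per kb in WT libraries, and over the 16 mitochondrial ones 11.4 CPM per kb in labelled Tfam-KO libraries and 9.21 CPM per kb in WT libraries. The arginyl-tRNA synthetase Rars stood highest of the cytosolic genes, at 320 CPM per kb in labelled Tfam-KO libraries and 279 CPM per kb in WT libraries, and the phenylalanyl subunit gene Farsa lowest, at 35.9 CPM per kb in labelled Tfam-KO libraries and 44.2 CPM per kb in WT libraries. Lars2, the mitochondrial leucyl enzyme, lay among the cytosolic levels at 170 CPM per kb in labelled Tfam-KO libraries and 164 CPM per kb in WT libraries, followed among mitochondrial members by Tars2 (31.2 CPM per kb in labelled Tfam-KO libraries and 28.3 CPM per kb in WT libraries) and Iars2 (29.8 CPM per kb in labelled Tfam-KO libraries and 32.6 CPM per kb in WT libraries), whose order differed between the groups. Pars2, the prolyl enzyme, was lowest at 2.75 CPM per kb in labelled Tfam-KO libraries and 2.58 CPM per kb in WT libraries. The longest transcripts of Pars2 and Cars2 have 3046 and 3135 bases, but all their exons span 3094 and 7237 bases. The lowest rank and the order of Tars2 and Iars2 therefore depend on the length used. Summed over genes, the cytosolic synthetases held 8178, 7717 and 8066 CPM in labelled Tfam-KO libraries 1 to 3, against 7580, 6974 and 6718 CPM in WT libraries 1 to 3. The groups did not overlap, and WT replicate 1, the most deeply sequenced library, was the WT library nearest to the labelled Tfam-KO ones. The mitochondrial synthetases summed to 1336, 1298 and 1378 CPM in labelled Tfam-KO libraries against 1323, 1274 and 1230 CPM in WT libraries, and here the groups overlapped. Lars2 alone held about as much as the other 15 together, and without it the sums were 682, 683 and 663 CPM in labelled Tfam-KO libraries against 655, 626 and 631 CPM in WT libraries, which did not overlap.

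The cytosolic synthetases outside the multi-synthetase complex held the 3 largest cytosolic increases. Of these 12 genes, 7 rose, 1 fell and 4 were not called (66.7% called, against 44.2% of all genes), and their median log2 fold change was 0.21. Wars, the tryptophanyl enzyme, had 303, 293 and 300 CPM in labelled Tfam-KO libraries against 232, 191 and 189 CPM in WT libraries, a log2 fold change of 0.55 ± 0.0835 (SE; adjusted p = 4.71e-05, edgeR). Aars, the alanyl enzyme whose promoter held 2 response elements, had 607, 564 and 596 CPM in labelled Tfam-KO libraries against 463, 390 and 367 CPM in WT libraries (0.53 ± 0.089, adjusted p = 0.000117). The 3′ end of Aars overlaps Exosc6 on the same strand over 14.29% of its exonic bases, so reads there are uncertain. For both genes all labelled Tfam-KO libraries lay above all WT libraries, and WT replicate 1 was the highest of its group. Yars, the tyrosyl enzyme, was at 369, 364 and 368 CPM in labelled Tfam-KO libraries and at 315, 282 and 274 CPM in WT libraries (0.34 ± 0.0764, adjusted p = 0.00173). Gars, which makes the glycyl enzyme of both compartments, was at 424, 384 and 409 CPM in labelled Tfam-KO libraries against 356, 321 and 294 CPM in WT libraries (0.32 ± 0.0833, adjusted p = 0.00429). These 4 genes were called in every alternative tried other than the test against a 1.5-fold change.

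Smaller increases were seen for Tars, Sars and Farsb. Tars, the threonyl enzyme, had 373, 351 and 375 CPM in labelled Tfam-KO libraries against 340, 298 and 286 CPM in WT libraries (0.25 ± 0.0805, adjusted p = 0.0181), and the call was lost without WT replicate 2 or 3 or Tfam-KO replicate 3 (adjusted p up to 0.0957). Sars, the cytosolic seryl enzyme, had 654, 593 and 618 CPM in labelled Tfam-KO libraries against 540, 542 and 513 CPM in WT libraries (0.23 ± 0.0769, adjusted p = 0.0246), and the call was lost without WT replicate 3 or Tfam-KO replicate 1 or 3 (adjusted p up to 0.0901). In both genes the groups did not overlap. With the replicate number as a block the Sars call was lost too. The 2 subunits of the cytosolic phenylalanyl enzyme, which act as one tetramer, were called in opposite directions. The beta subunit gene Farsb had 248, 238 and 262 CPM in labelled Tfam-KO libraries against 220, 222 and 209 CPM in WT libraries (0.20 ± 0.072, adjusted p = 0.0333), a call lost without WT replicate 2 or 3 or Tfam-KO replicate 3 (adjusted p up to 0.176). The Farsb call was also lost with the replicate number as a block. Sgpp2, which shares 9.47% of the exonic bases of Farsb on the other strand, was at 1.55 ± 0.548 CPM in labelled Tfam-KO libraries and 1.38 ± 0.623 CPM in WT libraries. The alpha subunit gene Farsa had 126, 114 and 121 CPM in labelled Tfam-KO libraries against 142, 151 and 150 CPM in WT libraries, and fell by 0.30 ± 0.0713 on the log2 scale (adjusted p = 0.00264). Farsa was the one cytosolic member to fall, and its call held without each library in turn. The log2 ratio of Farsb to Farsa, chosen after its values were seen, was 1.05 ± 0.0693 in labelled Tfam-KO libraries and 0.56 ± 0.072 in WT libraries (SD, n = 3 each), a difference of 0.50 with an exact two-sided permutation p of 0.1, the smallest that 3 against 3 can give.

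Among the 4 that did not pass, the asparaginyl enzyme gene Nars was at 722, 655 and 712 CPM in labelled Tfam-KO libraries and at 736, 641 and 613 CPM in WT libraries, with overlapping groups and a 95% interval of the log2 fold change from -0.11 to 0.25. The histidyl gene Hars (log2 fold change 0.07, interval -0.09 to 0.24) and the valyl gene Vars (0.04, interval -0.13 to 0.20) overlapped likewise. The cysteinyl gene Cars had 215, 195 and 199 CPM in labelled Tfam-KO libraries against 243, 230 and 218 CPM in WT libraries (-0.18 ± 0.0744, adjusted p = 0.0581). Its labelled Tfam-KO libraries all lay below WT, and it passed as lower with DESeq2 (adjusted p = 0.0447), with a filter of 5 CPM in 3 libraries (0.0384), with transcript length and GC content as offsets (0.0277) and without Tfam-KO replicate 1 (0.0294).

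Of the 11 genes of the multi-synthetase complex 3 were called (27.3%, against 44.2% of all genes), and a difference from the genes outside it was not tested. Of its 8 synthetase genes 3 rose and 0 fell (37.5% called, median 0.18), and of its 3 scaffold genes 0 were called in edgeR, in DESeq2 or with limma, nor at an unadjusted p below 0.05. Mars1, the methionyl enzyme that also charges the initiator tRNA, had 240, 234 and 245 CPM in labelled Tfam-KO libraries against 207, 185 and 179 CPM in WT libraries (0.33 ± 0.0755, adjusted p = 0.00186). The groups did not overlap. Mars1 shares 68 exonic bases with Ddit3, the stress-response factor CHOP, on the other strand, and Ddit3 averaged 162 ± 7.18 CPM in labelled Tfam-KO libraries and 58.2 ± 3.85 CPM in WT libraries (SD, n = 3 each). The part of reads from this overlap in the Mars1 value was not tested. Iars, the isoleucyl enzyme, had 377, 386 and 401 CPM in labelled Tfam-KO libraries against 378, 311 and 299 CPM in WT libraries (0.24 ± 0.0882, adjusted p = 0.0379), and here WT replicate 1 lay above Tfam-KO replicate 1. Its call was lost without WT replicate 2 or 3 or Tfam-KO replicate 2 or 3 (adjusted p up to 0.181). The same held with the replicate number as a block. A pseudogene, Gm4849, shares 96.0% identity with Iars over 1656 bases. Kars, the lysyl enzyme of both compartments, had 360, 313 and 348 CPM in labelled Tfam-KO libraries against 301, 300 and 292 CPM in WT libraries (0.19 ± 0.0763, adjusted p = 0.0487). This borderline call was lost without WT replicate 2 or 3 or Tfam-KO replicate 1 or 3 (adjusted p up to 0.168). It was also lost with the filter of 5 CPM, with the offsets and with the replicate number as a block.

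Eprs, the fused glutamyl-prolyl enzyme and the largest protein of the complex, was at 795, 843 and 830 CPM in labelled Tfam-KO libraries and 762, 733 and 706 CPM in WT libraries. Its groups did not overlap, but it did not pass (0.17 ± 0.0777, adjusted p = 0.0954). It was called higher under library totals (adjusted p = 0.00872), with DESeq2 (0.0394) and by limma on the authors' log2 values (0.00813). Rars was at 696, 629 and 697 CPM in labelled Tfam-KO libraries and at 638, 588 and 541 CPM in WT libraries (0.19 ± 0.0844, adjusted p = 0.0718). It passed with the same 3 alternatives, without WT replicate 1 (adjusted p = 0.0163) and without Tfam-KO replicate 2 (0.0344). The other 3 enzymes did not pass, with log2 fold changes of -0.07 for the leucyl gene Lars, -0.05 for the aspartyl gene Dars and -0.12 for the glutaminyl gene Qars, each with overlapping groups. The scaffold genes were Aimp1 (130 ± 10.2 CPM in labelled Tfam-KO libraries and 135 ± 12.6 CPM in WT libraries), Aimp2 (25.5 ± 4.63 CPM in labelled Tfam-KO libraries and 24.8 ± 2.26 CPM in WT libraries) and Eef1e1 (111 ± 12.1 CPM in labelled Tfam-KO libraries and 118 ± 7 CPM in WT libraries; SD, n = 3 each). Their 95% intervals were -0.23 to 0.12, -0.23 to 0.30 and -0.27 to 0.09 on the log2 scale, so a change of the size seen in Wars lay outside all 3. Aimp2 shares 29.44% of its exonic bases with Eif2ak1 on the other strand, so reads of these genes cannot be told apart there.

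The mitochondrial synthetases held both the largest increase and the largest decrease of all members. Sars2, which charges both mitochondrial serine tRNAs, had 23.7, 22 and 22.6 CPM in labelled Tfam-KO libraries against 11.8, 11.6 and 12 CPM in WT libraries. The raw counts were 501, 383 and 324 in labelled Tfam-KO libraries and 331, 178 and 169 in WT libraries. The fold change was 1.93, or 0.95 ± 0.111 on the log2 scale (95% interval 0.72 to 1.18, adjusted p = 2.56e-06, edgeR). Each group lay within a narrow range and the ranges were far apart, and the call held in every alternative, the test against a 1.5-fold change included. Hars2, the mitochondrial histidyl enzyme, had 23.8, 25.7 and 22.6 CPM in labelled Tfam-KO libraries against 34.2, 33.4 and 29.2 CPM in WT libraries, and fell by 0.43 ± 0.102 on the log2 scale (adjusted p = 0.00268). It was the one mitochondrial member to fall, and its groups did not overlap.

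**Figure D2:**
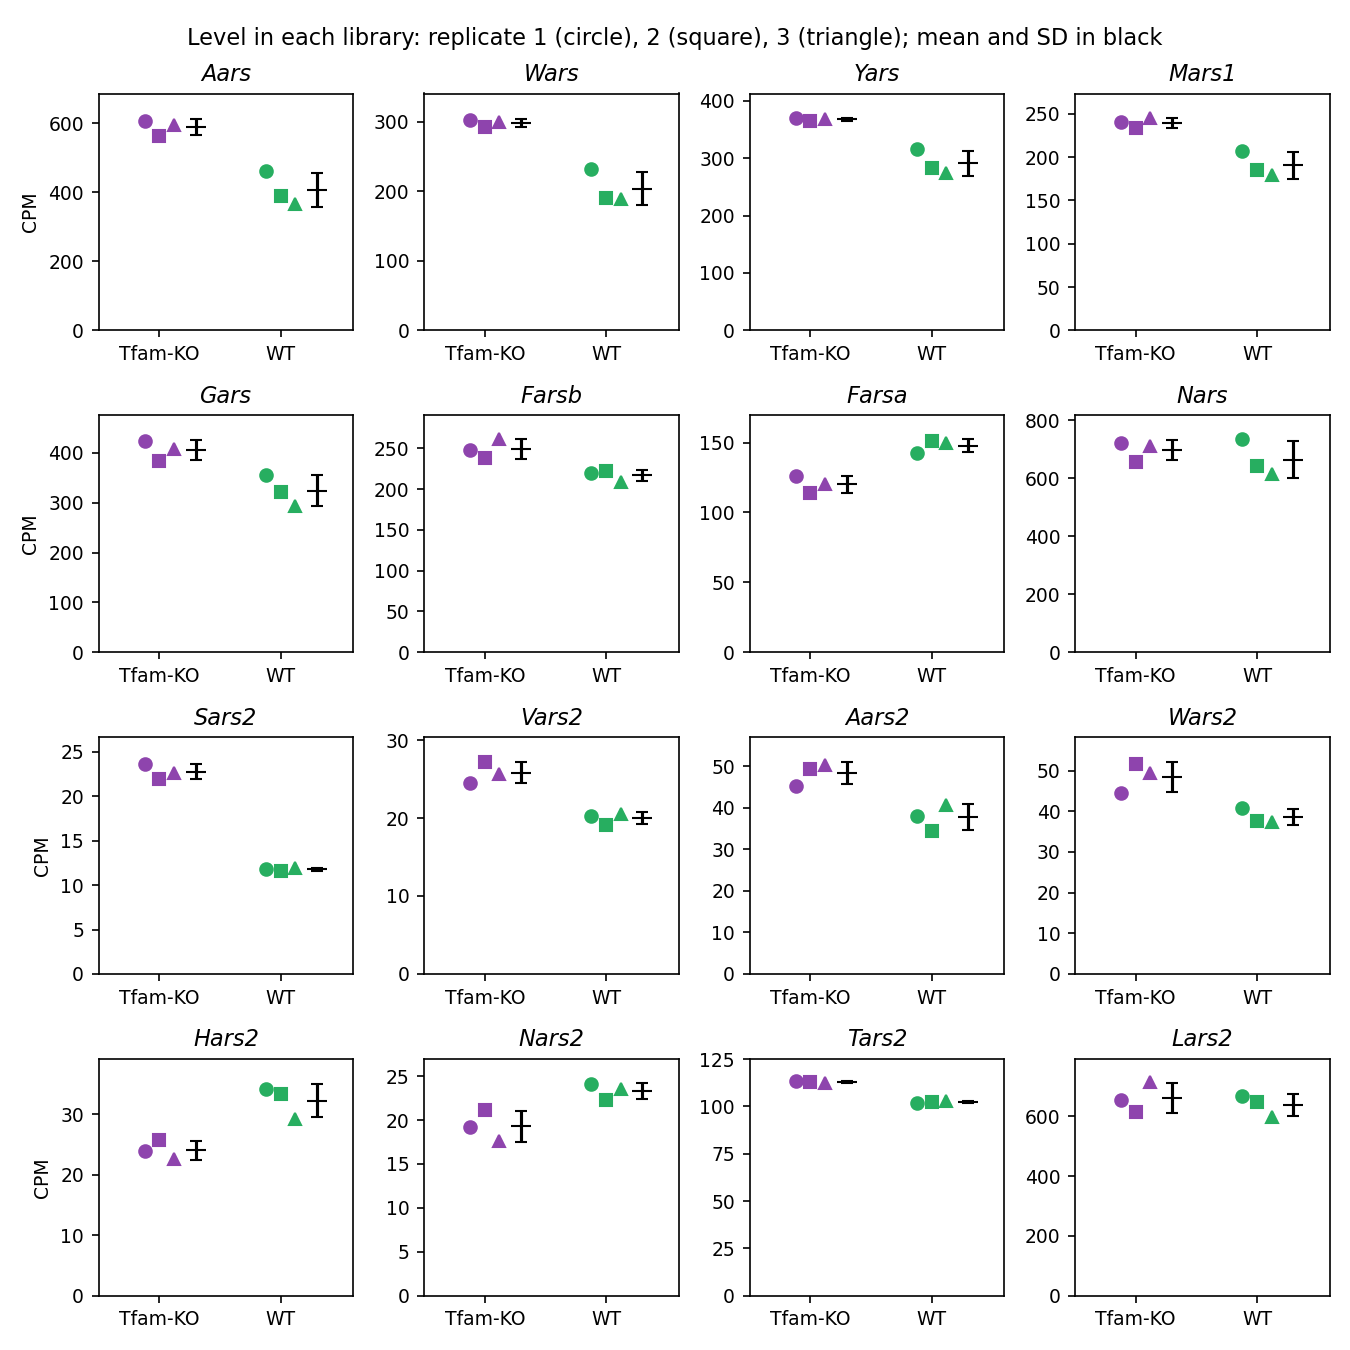
Level of 16 members in each library, in CPM (vertical axes, from 0), with labelled Tfam-KO libraries at the left and WT libraries at the right of each panel; circles, squares and triangles are replicates 1, 2 and 3, and black marks are the mean and SD (n = 3). Sars2 lies between 22 and 23.7 CPM in labelled Tfam-KO libraries and between 11.6 and 12 CPM in WT libraries, while the groups of Lars2 and Nars overlap.

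Increases of moderate size were seen for 4 further mitochondrial enzymes. Vars2, the valyl enzyme, had 24.6, 27.2 and 25.7 CPM in labelled Tfam-KO libraries against 20.3, 19.1 and 20.5 CPM in WT libraries (0.37 ± 0.101, adjusted p = 0.00693). An antisense gene, Gm20483, shares 8.52% of its exonic bases. Aars2, the alanyl enzyme, had 45.3, 49.3 and 50.4 CPM in labelled Tfam-KO libraries against 38, 34.5 and 40.6 CPM in WT libraries (0.36 ± 0.0933, adjusted p = 0.00484). Wars2, the tryptophanyl enzyme, had 44.4, 51.6 and 49.5 CPM in labelled Tfam-KO libraries against 40.8, 37.5 and 37.4 CPM in WT libraries (0.33 ± 0.0921, adjusted p = 0.00837). In all 3 the groups did not overlap, and the calls held in every alternative but the test against a 1.5-fold change. Yars2, the tyrosyl enzyme, had 54, 49.6 and 48.3 CPM in labelled Tfam-KO libraries against 40.2, 44.9 and 43.2 CPM in WT libraries (0.25 ± 0.0891, adjusted p = 0.0317), a call lost without WT replicate 1 or 3 or Tfam-KO replicate 1 (adjusted p up to 0.102). The Yars2 call was also lost with the replicate number as a block. For 4 amino acids, alanine, serine, tryptophan and tyrosine, the cytosolic and the mitochondrial gene were both called higher.

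Of the 16 mitochondrial members 10 were not called, and 4 of these passed in at least 1 alternative. Nars2, the asparaginyl enzyme, was at 19.2, 21.1 and 17.6 CPM in labelled Tfam-KO libraries and at 24.1, 22.3 and 23.5 CPM in WT libraries (-0.27 ± 0.108, adjusted p = 0.0505). All its labelled Tfam-KO libraries lay below WT, and it passed as lower with the filter of 5 CPM (adjusted p = 0.0377), with the offsets (0.00914) and without Tfam-KO replicate 2 (0.0247). Ears2, the glutamyl enzyme, was at 25.9, 22.3 and 22.5 CPM in labelled Tfam-KO libraries against 20, 19.3 and 20.5 CPM in WT libraries (0.25 ± 0.106, adjusted p = 0.0697), and Tars2, the threonyl enzyme, at 113 ± 0.352 CPM in labelled Tfam-KO libraries against 102 ± 0.516 CPM in WT libraries (SD, n = 3 each; 0.14 ± 0.068, adjusted p = 0.106). Library totals called both higher (adjusted p = 0.0151 for Ears2 and 0.0125 for Tars2), as did limma on the authors' log2 values (0.0191 for Ears2 and 0.012 for Tars2). Iars2, the isoleucyl enzyme, was at 167, 162 and 160 CPM in labelled Tfam-KO libraries against 192, 174 and 169 CPM in WT libraries (-0.13 ± 0.0724, adjusted p = 0.145) and passed as lower with the offsets (0.0135). It shares 22.89% of its exonic bases with Rab3gap2 on the other strand, which averaged 205 ± 10.5 CPM in labelled Tfam-KO libraries and 301 ± 3.85 CPM in WT libraries, and the part of that gene in the Iars2 value was not tested. The remaining 6 (Cars2, Fars2, Lars2, Mars2, Pars2 and Rars2) had log2 fold changes from 0.05 to 0.15. Lars2, the mitochondrial member highest per length, was at 654, 615 and 715 CPM in labelled Tfam-KO libraries and at 668, 648 and 598 CPM in WT libraries (interval -0.12 to 0.23).

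Setting each cytosolic gene against its mitochondrial counterpart within a library removes the scaling between libraries. There were 17 such pairs, with the fused Eprs set against Ears2 and Pars2 and both phenylalanyl subunits set against Fars2. In 4 pairs every labelled Tfam-KO ratio lay above every WT ratio, in 4 every one lay below, and in 9 the groups overlapped. Over single genes, 52.9% of all tested did not overlap in CPM, 26.3% with the labelled Tfam-KO libraries above and 26.6% with them below. Among the 39 members 18 lay above, 5 below and 16 overlapped. The largest shift was for serine: the log2 ratio of Sars to Sars2 was 4.79, 4.75 and 4.77 in labelled Tfam-KO libraries against 5.52, 5.55 and 5.42 in WT libraries, a difference of -0.73. Both genes rose, Sars2 by 0.95 and Sars by 0.23 on the log2 scale. Ratios were also lower for Farsa to Fars2 (-0.35), Vars to Vars2 (-0.33) and Cars to Cars2 (-0.33). They were higher for Hars to Hars2 (0.49), Iars to Iars2 (0.38), Nars to Nars2 (0.35) and Mars1 to Mars2 (0.26). Each of these 8 had an exact two-sided permutation p of 0.1, the smallest that 3 against 3 can give, and 0.21 after adjustment over the 17 pairs.

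**Figure D3:**
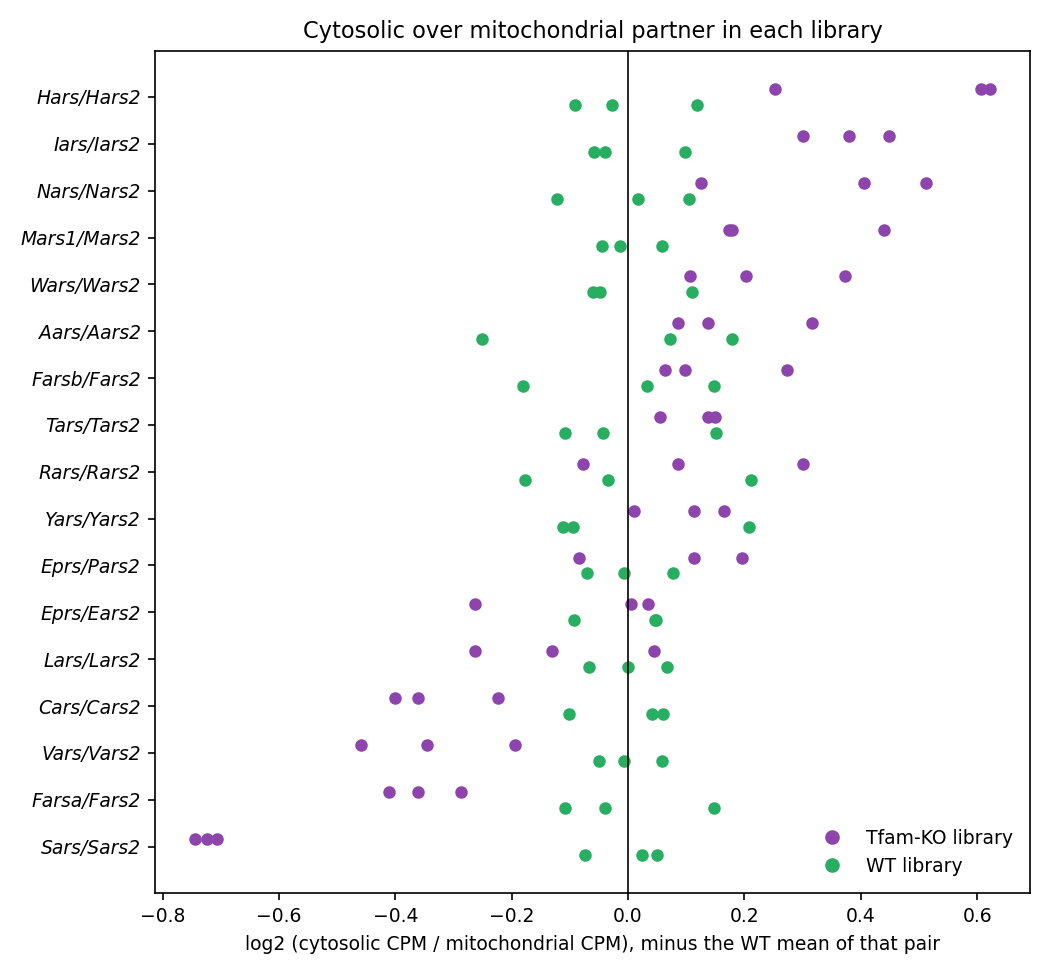
Log2 ratio of the cytosolic to the mitochondrial gene in each library, less the WT mean of that pair (horizontal axis), for 17 pairs; purple points are labelled Tfam-KO libraries, drawn above the green WT libraries. The pairs run down from Hars/Hars2 (difference 0.49) to Sars/Sars2 (-0.73), and in the 9 pairs from Wars/Wars2 to Lars/Lars2 the groups overlap.

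For alanine, tryptophan and tyrosine, where both partners were also called higher, the ratio groups overlapped. Wars to Wars2 averaged 2.63 ± 0.135 in labelled Tfam-KO libraries and 2.40 ± 0.0947 in WT libraries (SD, n = 3 each; exact permutation p = 0.2), and Yars to Yars2 averaged 2.86 ± 0.079 in labelled Tfam-KO libraries and 2.76 ± 0.18 in WT libraries (exact permutation p = 0.4). The histidine pair is a special case, because Hars and Hars2 lie head to head and share 195 bases of exon on opposite strands, so part of their reads cannot be told apart. Hars was at 137, 115 and 131 CPM in labelled Tfam-KO libraries and at 127, 118 and 119 CPM in WT libraries, with overlapping groups, while Hars2 fell. Per length of the longest transcript, leucine was the one amino acid with the more abundant mitochondrial gene. Lars then stood at 0.46 of Lars2 in labelled Tfam-KO libraries and 0.499 in WT libraries. These transcripts have 3980 bases in Lars and 3894 in Lars2. All exons together span 5368 bases in Lars and 11089 in Lars2, so this ratio depends on the length used.

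The 5 members with a C/EBP-ATF response element were Aars, Gars, Iars, Tars and Yars. RefSeq promoters, which reach from 250 bases before to 50 bases after the start, matched 30 of the 39 members, 16 cytosolic and 14 mitochondrial. The element was in promoters of 5 of the 16 cytosolic members and 0 of the 14 mitochondrial ones. That is 16.7% of the members matched, against 3.97% of 32851 promoters. The first share counts a member if any of its promoters matched, and the second counts single promoters. Of 9716 tested genes with a promoter entry, 281 held the element. All 5 members that held it were called higher, with log2 fold changes from 0.24 to 0.53. Without WT replicate 2, WT replicate 3 or Tfam-KO replicate 3 the calls for Iars and Tars were lost and 3 of the 5 were called. Of the 11 cytosolic genes without it, 4 were called higher and 1 lower (median 0.04), and without those libraries 2, 1 and 1 of them were called higher. Of the 14 mitochondrial genes 5 were called higher (median 0.14). Over all tested genes with a promoter entry, 24.9% of 281 genes with it were called higher and 18.5% lower, against 22.8% and 23.3% of 9435 genes without it. No promoter entry was used for Cars, Hars, Hars2, Lars, Nars, Pars2, Rars, Vars or Wars.

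**Figure D4:**
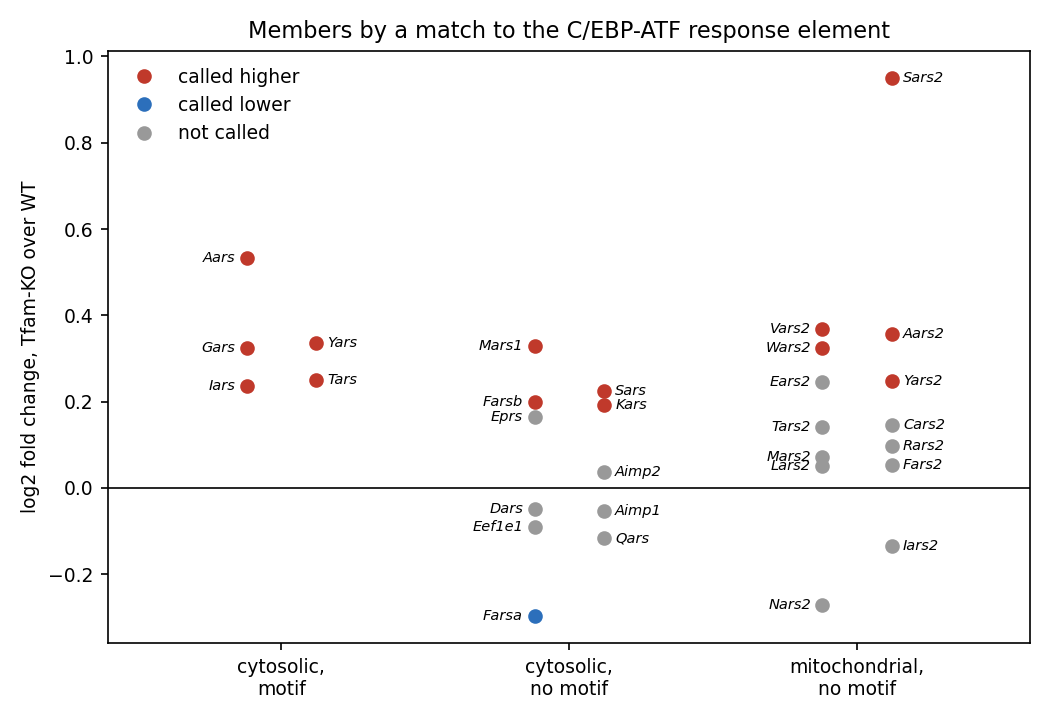
Log2 fold change, labelled Tfam-KO over WT (vertical axis), of the 30 members with a promoter entry, split by compartment and by a match to TGATGNAA; red points were called higher, blue lower and grey not called. All 5 cytosolic genes with a match are red, of which Iars and Tars were not called without WT replicate 2 or 3 or Tfam-KO replicate 3, and Sars2, the highest point, has no match.

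Other motifs were also searched on both strands. The E-box CACGTG was in the promoters of Aars, Ears2, Farsb, Iars and Tars (16.7% of members matched and 7.15% of all promoters). The NRF1 motif, known from promoters of nuclear genes for mitochondrial proteins, was in 6 members, 4 of them cytosolic (20% against 4.6%), and the ETS motif CCGGAAGT in 4 (13.3% against 3.89%). The shares of all promoters count single promoters, and include genes that were not tested here. Of 9716 tested genes with a promoter entry, 1145 held the E-box, 1111 the NRF1 motif and 912 the ETS motif. Each of these other motifs was thus commoner among tested genes, counted by gene, than over all promoters. A difference of the members from tested genes was not tested. A promoter without a match only lacks these letters within its window.

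The mitochondrial tRNA genes fell in the labelled Tfam-KO libraries while most of the enzymes that charge them did not. Of 22 listed mitochondrial tRNA genes 10 could be tested, and all 10 were lower, with log2 fold changes from -0.83 (mt-Tp, proline) to -2.61 (mt-Tc, cysteine) and a median of -1.94. The median was -1.25 with the offsets, where 8 were called lower, and -1.36 with limma on the authors' log2 values, where all 10 were. Of the 9 synthetases that serve them, 3 rose, 1 fell and 5 were not called. For serine, mt-Ts2 had raw counts of 38, 11 and 8 in labelled Tfam-KO libraries against 117, 64 and 82 in WT libraries, and fell by 2.16 ± 0.36 on the log2 scale (adjusted p = 0.000118) while Sars2 rose. For tryptophan, mt-Tw had 15, 13 and 7 counts in labelled Tfam-KO libraries against 74, 34 and 29 in WT libraries (-1.81 ± 0.359, adjusted p = 0.000565) while Wars2 rose. For tyrosine, mt-Ty had 10, 5 and 6 counts in labelled Tfam-KO libraries against 21, 32 and 12 in WT libraries (-1.58 ± 0.516, adjusted p = 0.0196), a call lost without WT replicate 2, without Tfam-KO replicate 2 and with the offsets (adjusted p up to 0.193). Histidine was the one amino acid whose enzyme and tRNA gene both fell: mt-Th had 23, 26 and 16 counts in labelled Tfam-KO libraries against 104, 62 and 64 in WT libraries (-1.72 ± 0.279, adjusted p = 8.72e-05). The call for mt-Tp was also lost with the offsets (adjusted p = 0.394). Mature tRNAs carry no poly(A) tail and are very short, so these counts are of RNA that covers the tRNA genes and not of charged or mature tRNA. The mitochondrial mRNAs, all 12 of those tested, were lower as well (median -1.89).

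**Figure D5:**
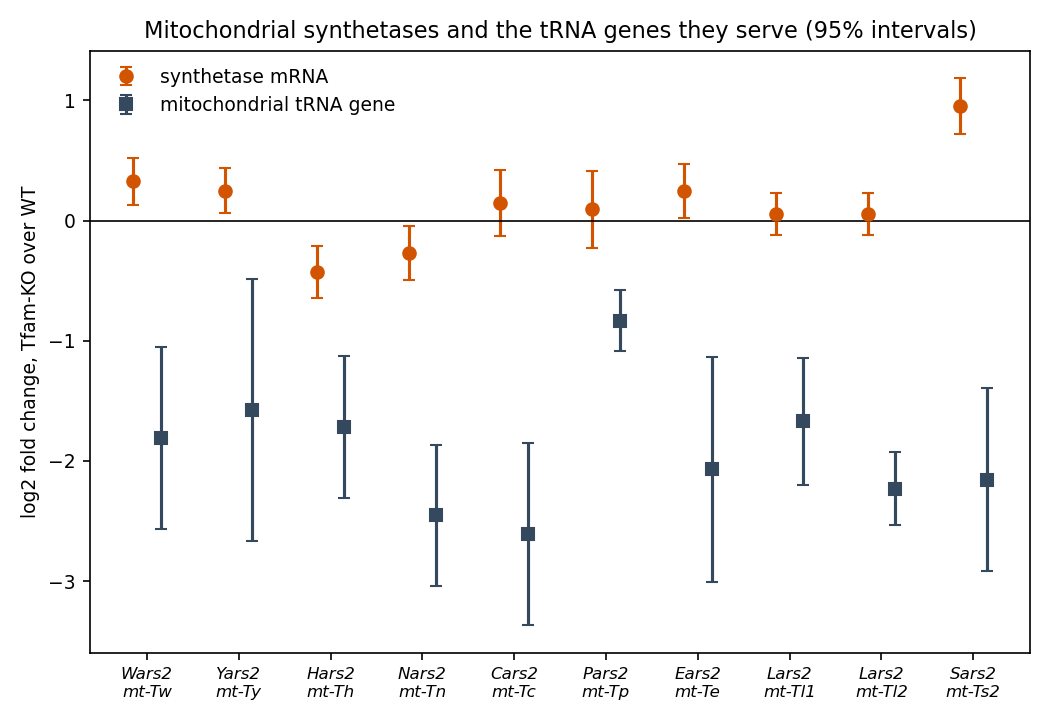
Log2 fold change, labelled Tfam-KO over WT (vertical axis), of each mitochondrial synthetase (orange circles) beside the mitochondrial tRNA gene it serves (dark squares), with 95% intervals from edgeR, n = 3 libraries a group. All 10 tRNA genes lie between -0.83 and -2.61, and the synthetases lie between -0.43 and 0.95; Lars2 is drawn beside both leucine tRNA genes.

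Genes that act beside the synthetases were taken from lists. Mitochondrial glutaminyl-tRNA is made by an amidotransferase, and 2 of its subunit genes rose: Qrsl1, the catalytic subunit, averaged 20.4 ± 1.51 CPM in labelled Tfam-KO libraries and 11.3 ± 1.01 CPM in WT libraries (SD, n = 3 each; 0.84 ± 0.122, adjusted p = 3.01e-05, edgeR), and Gatc averaged 41.8 ± 4.14 CPM in labelled Tfam-KO libraries and 32.3 ± 2.71 CPM in WT libraries (0.37 ± 0.102, adjusted p = 0.00693). The remaining subunit gene, Gatb, had no row in the count table. Mtfmt, which formylates the mitochondrial initiator methionyl-tRNA, was at -0.04 and was not called. Of the 3 genes tested in this list 66.7% were called higher, against 21.3% of all genes. Of 9 genes of tRNA proofreading and rescue 1 rose and 2 fell (33.3% called, against 44.2% of all genes), while 4 fell with the offsets and 3 rose with library totals or limma. The deacylase gene Prorsd1 averaged 17.1 ± 1.8 CPM in labelled Tfam-KO libraries and 28.5 ± 3.88 CPM in WT libraries (-0.73), and Dtd2, which clears misacylated tRNA, averaged 31.4 ± 2.07 CPM in labelled Tfam-KO libraries and 43.9 ± 3.99 CPM in WT libraries (-0.48). The ribosome quality control ligase Ltn1 was called higher (0.25), a call lost without WT replicate 2 or 3 or Tfam-KO replicate 2 or 3 and with the offsets (adjusted p up to 0.186). With the replicate number as a block it was lost as well.

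In tRNA maturation 8 of 28 tested genes rose and 4 fell (median 0.09), and the 42.9% called were near the 44.2% of all genes. Those that fell numbered 2 without WT replicate 2 or 3 or Tfam-KO replicate 3, and with library totals or limma on the authors' log2 values. The RNase P protein Rpp40 (0.61), the tRNA ligase Rtcb (0.51), the splicing endonuclease subunit Tsen15 (0.46) and the pseudouridine synthase Pus1 (0.46) had the largest increases. The call for Pus1 was lost without WT replicate 2 or 3 or Tfam-KO replicate 1 (adjusted p up to 0.129). Those that fell were Hsd17b10, a subunit of mitochondrial RNase P (-0.64), Rpp21 (-0.46), Elac1 (-0.41) and the La protein Ssb (-0.20). Calls were lost for Rpp21 without WT replicate 2 or Tfam-KO replicate 3 and with the offsets (adjusted p up to 0.228). They were lost for Elac1 without WT replicate 1 or 3 or Tfam-KO replicate 1 and with library totals (up to 0.0963), and for Ssb without WT replicate 2 or 3 or Tfam-KO replicate 2 or 3, with library totals and with no filter (up to 0.271). Ssb was also lost with the replicate number as a block. Of 10 elongation factor genes, Eef2 (0.29) and the mitochondrial factor Gfm1 (0.25) rose and the mitochondrial Guf1 fell (-0.34), or 30% called against 44.2% of all genes. With library totals or limma 5 of them rose, with the offsets 4 rose and 3 fell, and without Tfam-KO replicate 2 there were 4 that rose. Eef2 was lost without WT replicate 2 or Tfam-KO replicate 3 (adjusted p up to 0.0655) and Gfm1 without Tfam-KO replicate 3 (0.0524). Eef2 was also lost with the replicate number as a block.

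In a list of 16 tested genes of eIF2 phosphorylation and amino acid sensing, 3 rose and 4 fell, so that 43.8% were called, near the 44.2% of all genes. With limma or the offsets 5 of them rose. Eif2ak4 encodes GCN2, the kinase that uncharged tRNA activates, and it averaged 72.8 ± 6.12 CPM in labelled Tfam-KO libraries and 93.1 ± 5.75 CPM in WT libraries (-0.36 ± 0.0823, adjusted p = 0.00198). The eIF2 kinase genes Eif2ak2 (PKR, 0.58) and Eif2ak1 (HRI, 0.26) rose, as did Dele1 (0.39), which in human cells carries mitochondrial stress to HRI. The call for Eif2ak1 was lost without any 1 of WT replicates 1, 2 and 3 or Tfam-KO replicates 2 and 3 (adjusted p up to 0.163). It was also lost with DESeq2 and with the replicate number as a block. The Rag GTPase genes Rraga (-0.58), Rragd (-0.45) and Rragc (-0.36), which relay amino acid supply to mTORC1, fell, and the call for Rragd was lost without WT replicate 3 and with library totals (adjusted p up to 0.0627).

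A list of ATF4 targets other than the 39 members had 26 tested genes, Atf4 itself (0.40, called higher) among them. Of these, 14 rose (53.8%, against 21.3% of all genes) and 4 fell (15.4%, against 22.9%), with a median of 0.35. With library totals 18 rose and 3 fell. In the test against a 1.5-fold change 4 rose and 1 fell, where 2.9% of all genes were called higher and 5.26% lower. Gdf15, a secreted stress cytokine, averaged 295 ± 13.6 CPM in labelled Tfam-KO libraries and 80.3 ± 3.19 CPM in WT libraries (1.88 ± 0.0741, adjusted p = 3.86e-12). The cystine transporter Slc7a11 (1.85), Ddit3 (1.48) and the pseudokinase Trib3 (1.29) also rose. Each of these 4 changed more than any of the 39 members. Those that fell were Ddit4 (-1.08), Atf5 (-0.46), Slc38a2 (-0.40) and Slc1a5 (-0.27), the call for Slc1a5 being lost without WT replicate 3 and with library totals (adjusted p up to 0.073).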

How the data were processed

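RNA was sequenced from 3 BV2 samples labelled Tfam-KO and 3 labelled WT. The submitters' processing notes name build GRCm39 and, in no stated order, featureCounts 2.0.0, HISAT2 2.1.0, SAMtools 1.9 and bcl2fastq 2.17. Treatment of strand and of reads with several matches: not given in the sources used here. One deposited table holds raw read counts, whole numbers without normalization by the authors. Another holds the authors' log2 values, which equal the count, scaled so that all libraries have one total, plus 8, on the log2 scale. The number of columns without a sample was 0.

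The count test was that of edgeR 4.0.16, run in R 4.3.3 (filterByExpr, TMM, glmQLFit, glmQLFTest, Benjamini-Hochberg over 13403 genes), using all 6 libraries with no covariate, and the step was tested on simulated data. Pairs were compared with exact two-sided permutation tests. Alternatives were median-ratio factors, library totals, TMM without mitochondrial genes, DESeq2 1.42.0, no filter, at least 5 CPM in 3 libraries, a replicate block, limma 3.58.1 on the authors' log2 table, offsets for transcript length and GC content, glmTreat against 1.5-fold and each library left out. Transcript lengths (99.5% of tested genes), overlaps and copies (BLAST 2.17.0, at least 95% identity over 100 bases) came from GENCODE M21 on GRCm38, and promoters from RefSeq on GRCm38.p6, another build than the authors'. Replicates of a group differed beyond sampling noise. The members and lists were chosen with earlier results of these data known. Named genes are any member, Tfam, cell type markers, and in each list up to 4 called genes (mean of 1 CPM or more) with the largest change, or all that moved in a direction where 5 or fewer did; Rab3gap2, neighbouring genes and the Farsb to Farsa ratio were added after values were seen.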

Additional observations from a re-analysis of the deposited data

How the results depend on the processing

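Of 17 called members, 11 were called in all 15 alternatives other than glmTreat, 6 were lost in at least 1, and none reversed; of 22 not called, 7 passed in at least 1. Tested against a 1.5-fold change (glmTreat), 1094 genes were called (389 higher, 705 lower), with 0 cytosolic members (0 higher, 0 lower) and 1 mitochondrial member (1 higher, 0 lower). Cytosolic members called lower numbered 2 with DESeq2, with the filter of 5 CPM and with the offsets, and mitochondrial ones 2 with the filter and 3 with the offsets. The cytosolic median, 0.17 with TMM, was 0.27 with library totals and 0.27 with limma on the authors' log2 table, and the mitochondrial median, 0.12 with TMM, was 0.22 and 0.21, as the median of all genes moved to 0.0998 and 0.0926. Leaving out 1 library gave 6 to 12 cytosolic members called (5 to 11 higher, 1 to 2 lower), with the lowest count without WT replicate 3 or Tfam-KO replicate 3 and 7 without WT replicate 2; mitochondrial members called lower numbered 1 to 2, and the mitochondrial median ran from 0.12 to 0.15. The cause was not tested. With the replicate number as a block, 7 cytosolic members were called, 6 of them higher. Deviations of same-numbered samples correlated at -0.10, -0.11 and 0.04, and those of samples with different numbers at -0.05 to 0.15. With 3 libraries a group these values cannot show whether same-numbered samples were prepared together, and the labels do not say. The Eprs to Ears2 ratio, with a difference of -0.07, stood at 0.02 without Tfam-KO replicate 1; the other 16 pair ratios kept their direction without any 1 library. Counts of 3 against 3 libraries limit the exact tests to p = 0.1, and the fewest reads lay behind the mitochondrial tRNA genes, down to 5 counts in a library.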

Other observations

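Several members share a start region with a neighbour on the opposite strand (starts within 1000 bases in GENCODE M21), and neighbours did not follow one pattern. Sars2, the member with the largest increase, lies beside Mrps12, a mitochondrial ribosomal protein gene that averaged 21.7 ± 2.2 CPM in labelled Tfam-KO libraries and 24.8 ± 0.502 CPM in WT libraries (log2 fold change -0.19, adjusted p = 0.154, edgeR). The log2 ratio of Sars2 to Mrps12 was 0.0145, 0.193 and 0.00446 in labelled Tfam-KO libraries against -1.10, -1.06 and -1.07 in WT libraries, with an exact permutation p of 0.1. Wars and its neighbour Wdr25 were both called higher (0.55 and 0.48). Kars was called higher beside Terf2ip, which fell by 0.42 on the log2 scale, and Yars was called higher beside S100pbp, which was not called (-0.05). These neighbours were chosen after the members' values were seen.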
